A study of Mus musculus with 30 samples.

Results

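The splicing factors and heterogeneous nuclear ribonucleoproteins (hnRNPs) of mouse microglia were described here by 59 transcripts out of a table of 14225. They were chosen by gene symbol alone, without any measured value: every transcript whose symbol begins with Hnrnp or Snrp, or with Srsf, Sf3a, Sf3b or Prpf followed by a digit. They belong to 55 genes, of which Hnrnpa1, Hnrnpa2b1, Hnrnpf and Srsf11 have 2 transcripts each. By the proteins of their genes, 7 transcripts belong to the Sm core, 2 to the U1 particle, 11 to the U2 particle and 4 to the tri-snRNP. The last role includes Prpf38a, which is counted with the tri-snRNP here although its protein acts in the assembled spliceosome. Another 6 belong to other Prpf proteins, 11 to SR proteins (10 genes) and 18 to hnRNPs (15 genes). Non-coding RefSeq identifiers are carried by 5 of the 59, which are transcripts of Srsf3, Srsf7, Srsf9, Hnrnpa1 and Hnrnpa2b1.

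RNA was sequenced from CD11B-positive cells isolated with magnetic beads from whole brains of C57BL/6J mice, in 30 libraries that fell into 10 groups of 3. The dams had received saline (Saline offspring) or poly(I:C), a double-stranded RNA that activates the maternal immune system (MIA offspring). Saline and MIA offspring were taken at E17, P7, P20 and P60, without further treatment at the first 3 of these ages. At P60 the offspring of either kind had eaten control chow (CTRL), or chow with the CSF1R inhibitor PLX5622, which depletes microglia, and then chow without it, so that microglia repopulated the brain (MG-REP). A library was made from the pooled brains of 1 litter at E17, from a pool of 3 brains at P7 and from 1 brain at P20 and P60. CD11B is also carried by other myeloid cells, which the beads would take as well, and the labels do not give sex.

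Introns are removed from pre-mRNA by the spliceosome, which assembles from small nuclear ribonucleoprotein particles (snRNPs). Each of the U1, U2, U4 and U5 particles is built around a ring of Sm proteins on its small nuclear RNA, U1 recognises the start of an intron, U2 its branch point, and the tri-snRNP brings in the other particles. SR proteins bind exons and mostly promote their inclusion, whereas hnRNPs coat nascent RNA and often repress splice sites, and many genes of both families regulate their own messages through exons that carry an early stop codon.

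The values are TPM (transcript abundance relative to the library's total), a level per length of transcript, so that levels can be compared between genes. Differences are given as log2 differences, which are differences of the mean log2(TPM + 1), with their standard error (SE) and with limma p-values adjusted by the Benjamini-Hochberg method over all 14225 transcripts. A transcript was called changed at an adjusted p under 0.05. Differences of transcripts at low TPM are understated on this scale. Every test rests on 3 libraries per group, of which those at P20 and P60 are separate mice. Saline or poly(I:C) was given to the dam, and the litters of the P7, P20 and P60 libraries are not given in the sources used here. Littermates may thus stand as separate libraries of a group. The paper examined litter and reported no sign that it changed the treatment effect.

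The TPM of the libraries summed to between 995495 and 998012, and from the steps between low TPM values each library was estimated to hold 7990000 to 12820000 counted reads. The markers of microglia were present in every library, with 8 transcripts such as Cx3cr1, Csf1r and P2ry12 summing to between 13444 and 41975 TPM. Several libraries stood apart by the markers of other cells or states. Saline + MG-REP library 1 had 1837 TPM over 13 mitotic transcripts against 742 and 644 TPM in the other two libraries of its group. Saline + MG-REP library 2 had 4592 TPM of neutrophil and monocyte transcripts against 83.7 and 314 TPM. E17 MIA library 1 had 1209 TPM of neuronal transcripts, against 198 TPM in the lowest library of its group. In a bulk library, fewer cells of a type and less RNA per cell cannot be told apart.

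The members were well expressed for this table, with a median of 77.3 TPM over their means against 15.8 TPM over all transcripts. How the authors assigned a read that lies in several transcripts of 1 gene is not given in the sources used here, and the level of a member went with the number of its gene's curated RefSeq transcripts. The 26 members whose gene has 1 curated transcript had a median of 108 TPM, and the 33 members of genes with several had 46.2 TPM. Over all transcripts the same medians were 25.5 and 6.26 TPM. All 9 members with a mean under 5 TPM, among them Hnrnpc, Snrpa, Srsf9 and Srsf12, came from genes with several, so their values may hold a part of the gene's reads. Of 66 RefSeq genes that fit the symbols, 11 were not analysed here, among them Hnrnpk, Hnrnpd, Hnrnpa3, Prpf19 and Snrpn, the paralogue whose protein is nearly identical to that of Snrpb.

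**Figure D1:**
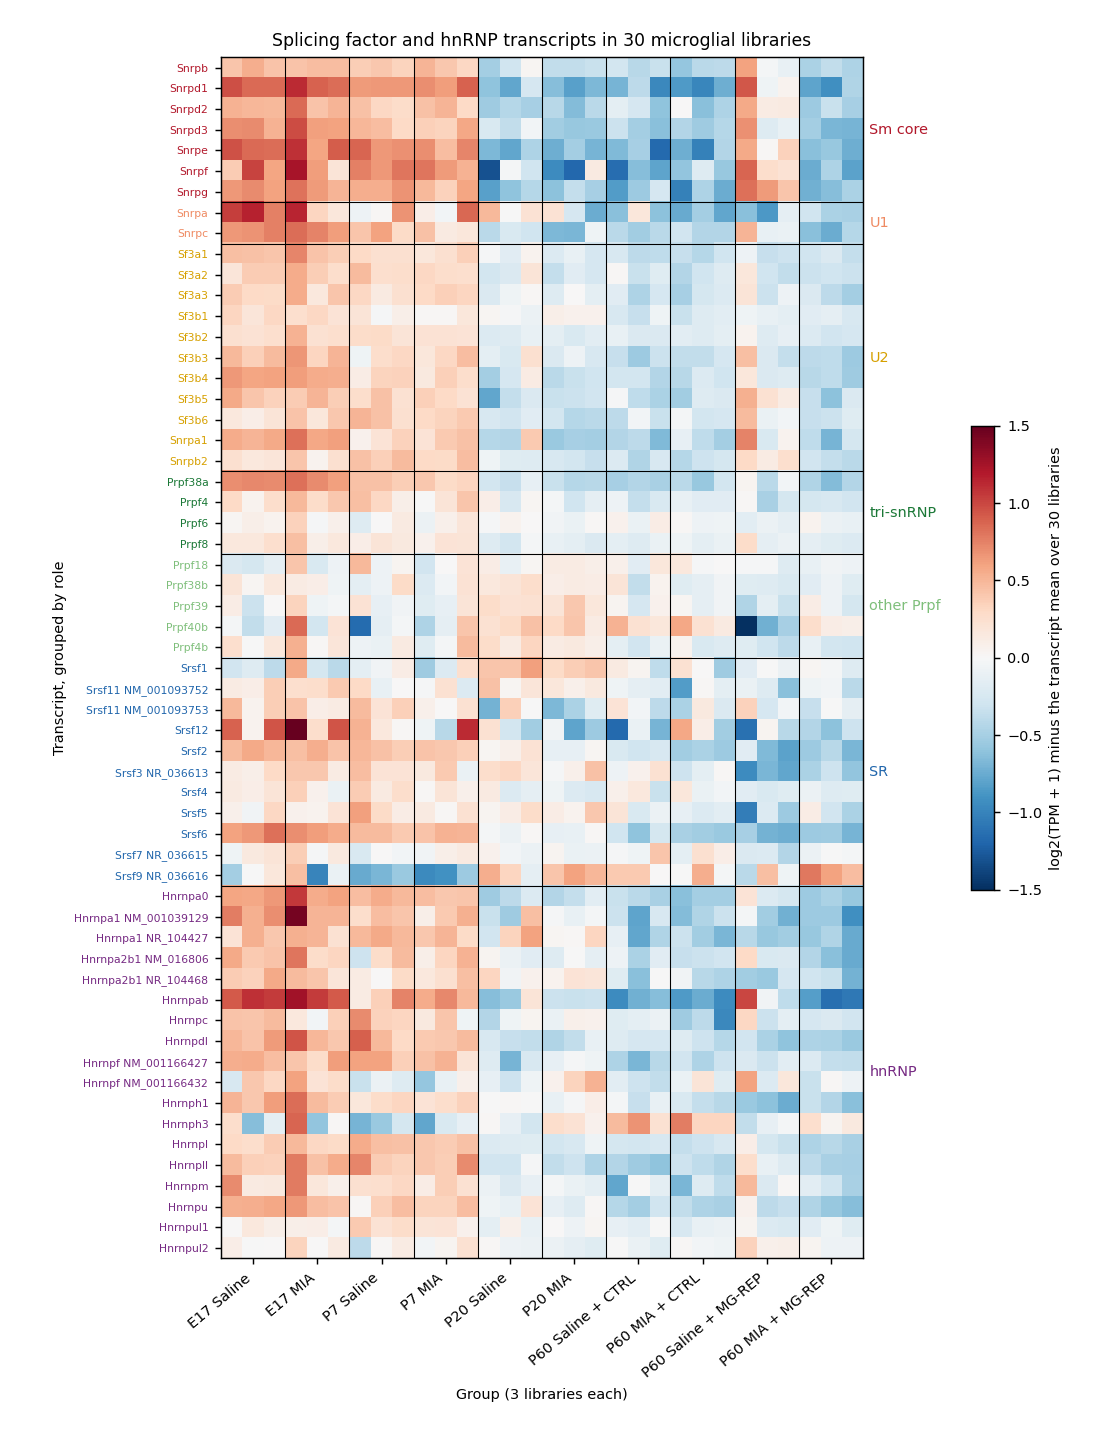
Each row is 1 of 58 of the transcripts, ordered by role, and each column 1 of the 30 libraries, ordered by group. Colour gives log2(TPM + 1) minus the mean of that transcript over all libraries, and the Sm core rows are high in the E17 and P7 libraries, and higher in each Saline + MG-REP library than in the Saline + CTRL libraries.

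Expression over development was compared first, in Saline offspring between consecutive ages. Between E17 and P7 no member was called, where 3.09% of all transcripts were called higher and 1.23% lower, and 11 members had an unadjusted p under 0.05, as had 18.7% of all transcripts. The 3 with the smallest p were Prpf38a, a factor that activates the assembled spliceosome, with a log2 difference of −0.30 (adjusted p = 0.101, limma), the SR protein gene Srsf6 with −0.25 (adjusted p = 0.113, limma) and the U2 protein gene Sf3b4 with −0.35 (adjusted p = 0.119, limma). The members changed in number between P7 and P20, when 30 of 59 fell and 2 rose. Of all transcripts, 20.1% fell and 16.1% rose in that interval, and the median log2 difference was −0.36 over the members and −0.02 over all transcripts. The 30 included 7 of 7 Sm core transcripts, 8 of 11 of U2, 8 of 18 of the hnRNPs and 3 of 11 of the SR proteins. Between P20 and P60, 3 members fell and none rose, against 2.49% and 1.02% of all transcripts.

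Among the members that fell between P7 and P20, Snrpe, Snrpf and Snrpg, whose proteins join each other in the Sm ring, fell most. In GRCm38.p6 Snrpe lies on chromosome 1 from 133603871 to 133610280, Snrpf on chromosome 10 from 93583029 to 93589658 and Snrpg on chromosome 6 from 86371540 to 86378902. Snrpe (NM_009227) had 163, 140.1 and 143 TPM in the P7 Saline libraries and 55.0, 51.1 and 63.9 TPM at P20, a log2 difference of −1.38 ± 0.16 (SE, adjusted p = 7.93e-07, limma). Snrpf (NM_027246) had 27.4, 25.3 and 28.4 TPM at P7 and 5.80, 15.5 and 12.7 TPM at P20 (−1.28 ± 0.32, adjusted p = 0.0028, limma). Snrpg (NM_026506) had 60.8, 60.7 and 66.9 TPM at P7 and 23.2, 27.0 and 30.6 TPM at P20 (−1.20 ± 0.15, adjusted p = 1.26e-06, limma). No library of one age overlapped with the other for these 3 genes, which the rule that named them required. Of all 14225 transcripts, 3445 were lower at P20 without overlap. The 2 risers were Prpf40b, which codes for a factor associated with U1, and Srsf9. Prpf40b (NM_018786) had 19.1, 39.8 and 43.0 TPM at P7 and 51.6, 53.8 and 59.6 TPM at P20 (0.76 ± 0.29, adjusted p = 0.043, limma), and without P7 Saline library 1 its adjusted p was 0.314. Srsf9 (NR_036616) stayed at or under 3.52 TPM in all these libraries (0.91 ± 0.28, adjusted p = 0.0139, limma).

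The fallers between P20 and P60 were Srsf6, Hnrnpu and a non-coding transcript of Hnrnpa1. Srsf6 (NM_026499), a regulator of exon inclusion, had 362, 347 and 373 TPM at P20 and 299.9, 242 and 308 TPM in Saline + CTRL at P60 (−0.36 ± 0.09, adjusted p = 0.0243, limma). Hnrnpu (NM_016805), which also organises chromatin in the nucleus, had 638, 615 and 765 TPM and then 495, 468 and 542 TPM (−0.42 ± 0.12, adjusted p = 0.0497, limma). The P60 libraries lay below those of P20 for both, which the rule that named them required. None of the 3 calls was kept with median-ratio scaling, quantile normalization, Xist as a covariate or a fit of the 2 groups alone. Sex also differed between the ages by 4 Y-linked genes. These summed to a mean of 219 TPM in E17 Saline, 145 TPM in P7 Saline and 0.38 TPM in P20 Saline. In the Saline + CTRL libraries they had 0.46, 268 and 318 TPM. The steps from P7 to P20 and from P20 to P60 are thus partly ones of sex as well. With Xist as a covariate 31 members were called from P7 to P20 and 39 from E17 to P60.

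Over the whole span, from E17 to P60 with control chow, 41 of 59 members fell in Saline offspring and 1 rose, where 25.4% of all transcripts fell and 22.1% rose. In MIA offspring 44 of 59 fell and none rose, where 28.8% of all transcripts fell and 19.3% rose. The median log2 difference of the members was −0.68 in Saline and −0.76 in MIA offspring, and that of all transcripts −0.01 and −0.11. Summed over the 59 transcripts, the E17 Saline libraries held 10891 to 11326 TPM and the Saline + CTRL libraries at P60 held 6451 to 7114 TPM. The difference between E17 and P60 itself was compared between Saline and MIA offspring, and no transcript of the table was called (0% higher and 0% lower; 1.59% had an unadjusted p under 0.05). Srsf3 (−0.36), Hnrnpa0 (−0.28) and Srsf2 (−0.23) had the smallest p of the members there (adjusted p = 1, limma).

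By role, the fall with age took in 7 of 7 Sm core transcripts, 2 of 2 of U1, 11 of 11 of U2 and 3 of 4 of the tri-snRNP in Saline offspring, with the same counts in MIA offspring. Of the hnRNPs 14 of 18 fell in Saline offspring and 14 of 18 in MIA offspring. Of the SR transcripts 3 of 11 fell in Saline and 5 of 11 in MIA offspring. The median log2 difference in Saline offspring was −1.20 over the Sm core, −0.62 over U2, −0.70 over the hnRNPs and −0.18 over the SR proteins. Of the 26 members of genes with 1 curated transcript 24 fell, and of the 33 others 17 fell and 1 rose.

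The Sm core gave 1480 TPM in sum at E17 in Saline offspring and 714 TPM in Saline + CTRL at P60. Snrpe had 173, 159.99 and 158 TPM in the E17 Saline libraries and 55.7, 62.6 and 39.0 TPM in the Saline + CTRL libraries, a log2 difference of −1.65 ± 0.16 (SE, adjusted p = 2.17e-08, limma). For Snrpe the MIA libraries had 190.2, 134 and 168 TPM at E17 and 52.8, 43.5 and 65.1 TPM at P60 (−1.60 ± 0.16, adjusted p = 3.92e-08, limma). In both kinds of offspring the E17 libraries lay far above those of P60. Snrpd1 (NM_009226), another ring subunit, had 133, 123 and 122 TPM at E17 and 41.2, 51.3 and 34.0 TPM at P60 in Saline offspring (−1.58 ± 0.19, adjusted p = 3.25e-07, limma). With MIA its log2 difference reached −1.80 ± 0.19 (adjusted p = 4.83e-08, limma). The most abundant ring subunit was Snrpb (NM_009225), with 556, 609 and 559 TPM at E17 and 344, 312 and 331 TPM at P60 in Saline offspring (−0.80 ± 0.13, adjusted p = 2.23e-05, limma). No E17 library overlapped with a P60 library for any of the 3 genes, which for Snrpe and Snrpd1 the rule that named them required. Of all 14225 transcripts, 4262 were lower at P60 without overlap in Saline offspring.

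**Figure D2:**
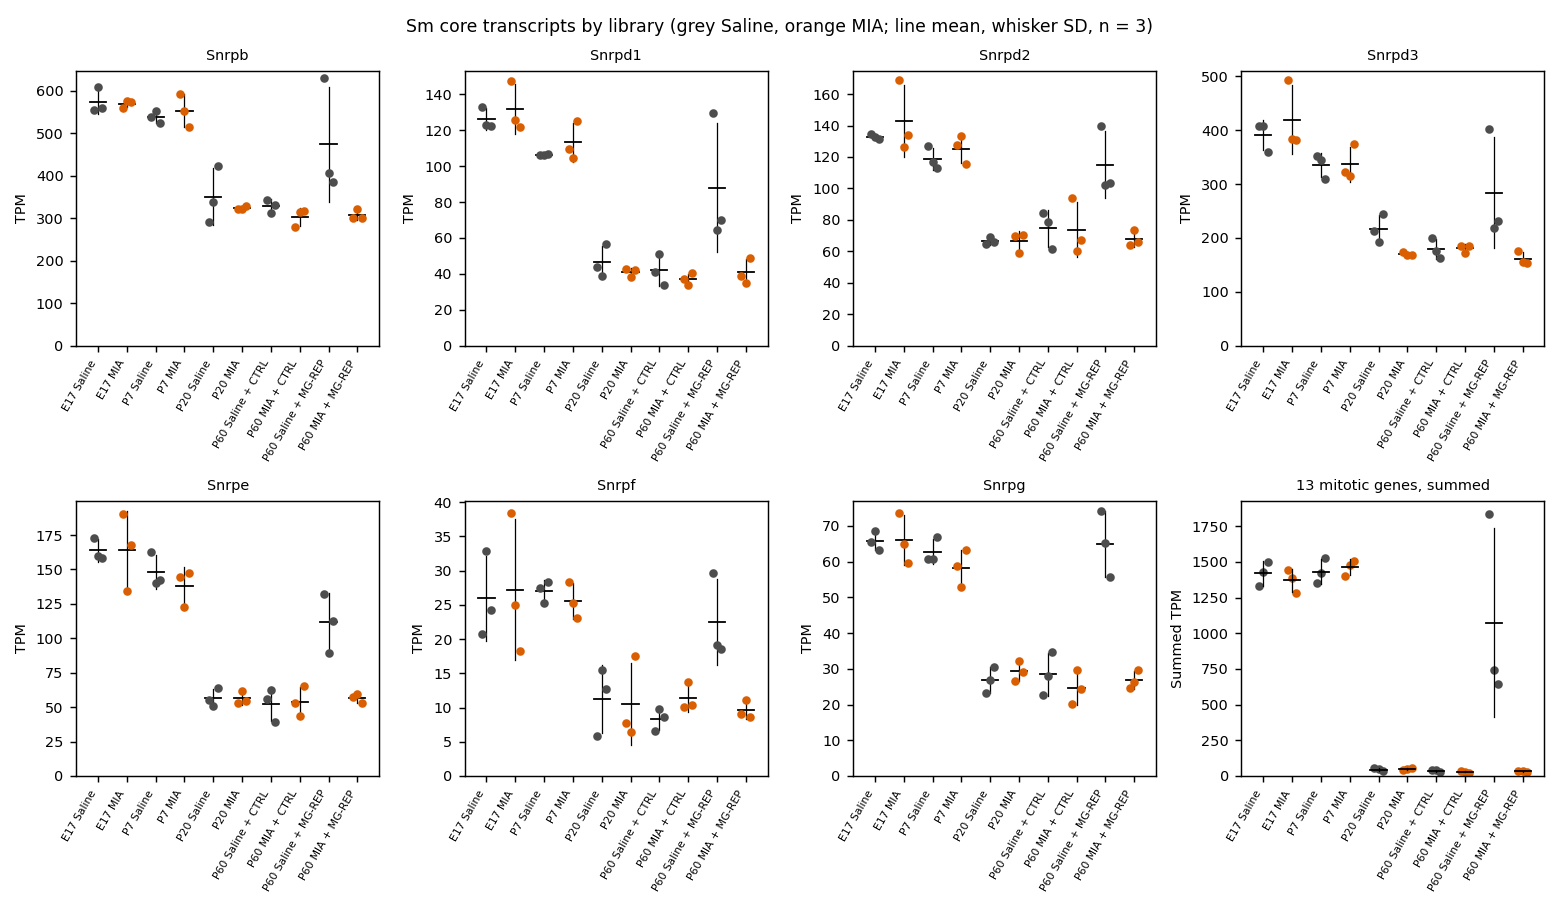
The TPM of each of the 7 Sm core transcripts, and in the last panel the summed TPM of 13 mitotic transcripts, are plotted on the y axis for the 10 groups on the x axis. Points are libraries (grey Saline, orange MIA), lines are means and whiskers SD of 3 libraries, and the means of the E17, P7 and Saline + MG-REP groups sit above those of the other groups in each panel.

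Among the snRNP-specific proteins, Snrpc (NM_011432), a U1 protein that helps to bind the start of the intron, had 51.4, 52.4 and 55.7 TPM in E17 Saline and 24.3, 22.4 and 24.3 TPM in Saline + CTRL (−1.13 ± 0.16, adjusted p = 2.92e-06, limma). Sf3b1 (NM_031179), the large U2 subunit that holds the branch point, had 476, 432 and 470.1 TPM at E17 and 322, 299 and 364 TPM at P60 (−0.49 ± 0.08, adjusted p = 1.59e-05, limma). Prpf38a (NM_172697), counted here with the tri-snRNP, had 90.3, 91.4 and 90.5 TPM at E17 and 38.6, 40.4 and 39.2 TPM at P60 (−1.18 ± 0.10, adjusted p = 1.92e-09, limma). The libraries of the 2 ages did not overlap for any of these genes. Prpf8 (NM_138659), the scaffold of the catalytic centre, fell by less, with 206, 207 and 219 TPM at E17 and 167, 162 and 172 TPM at P60 (−0.33 ± 0.10, adjusted p = 0.00643, limma). Of the other tri-snRNP members, Prpf6 had a log2 difference of −0.03 (adjusted p = 0.821, limma).

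Of the hnRNPs, Hnrnpab (NM_001048061, chromosome 11 of GRCm38.p6 from 51600100 to 51606881), an RNA-binding protein of nuclear and transported messages, had the largest fall. It had 31.2, 35.1 and 34.2 TPM in E17 Saline and 7.83, 9.30 and 9.93 TPM in Saline + CTRL (−1.79 ± 0.25, adjusted p = 2.47e-06, limma), and for MIA the log2 difference came to −1.93 ± 0.25 (adjusted p = 8.83e-07, limma). Hnrnpa0 (NM_029872), which binds AU-rich elements, had 808, 801 and 839 TPM at E17 and 426, 405 and 381 TPM at P60 in Saline offspring (−1.01 ± 0.12, adjusted p = 2.66e-07, limma). Hnrnph1 (NM_021510), which binds runs of G, had 1110, 1037 and 1204 TPM at E17 and 767, 613 and 721 TPM at P60 (−0.68 ± 0.11, adjusted p = 1.99e-05, limma). For these 3 genes the ages did not overlap, which for Hnrnpab the rule that named it required. The member that rose with age in Saline offspring was Hnrnph3, named here after its values were seen, which had 28.3, 14.7 and 21.1 TPM at E17 and 33.1, 38.1 and 27.7 TPM at P60. Its log2 difference was 0.64 ± 0.26 (adjusted p = 0.0476, limma), its libraries overlapped between the ages, and in MIA offspring it was 0.37 (adjusted p = 0.248, limma).

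The SR transcripts divided. Among them only Srsf2 and Srsf6 come from genes with 1 curated RefSeq transcript. The values of the others may hold a part of their gene's reads. Srsf2 (NM_011358), which promotes exon inclusion and also acts in transcription, had the highest mean of the listed SR transcripts, with 974, 1042 and 990.2 TPM in E17 Saline and 599.7, 571 and 595 TPM in Saline + CTRL (−0.77 ± 0.11, adjusted p = 3.41e-06, limma). Srsf6 had 563, 578 and 656 TPM at E17 and then 299.9, 242 and 308 TPM (−1.08 ± 0.09, adjusted p = 7.67e-10, limma). Both fell without overlap between the ages. Srsf4 changed by −0.18 (adjusted p = 0.26, limma) and the Srsf7 transcript by 0.02 (adjusted p = 0.91, limma), and neither passed the test. Srsf12 stayed under 5 TPM in every Saline library of these ages (−1.28 ± 0.43, adjusted p = 0.0174, limma).

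**Figure D3:**
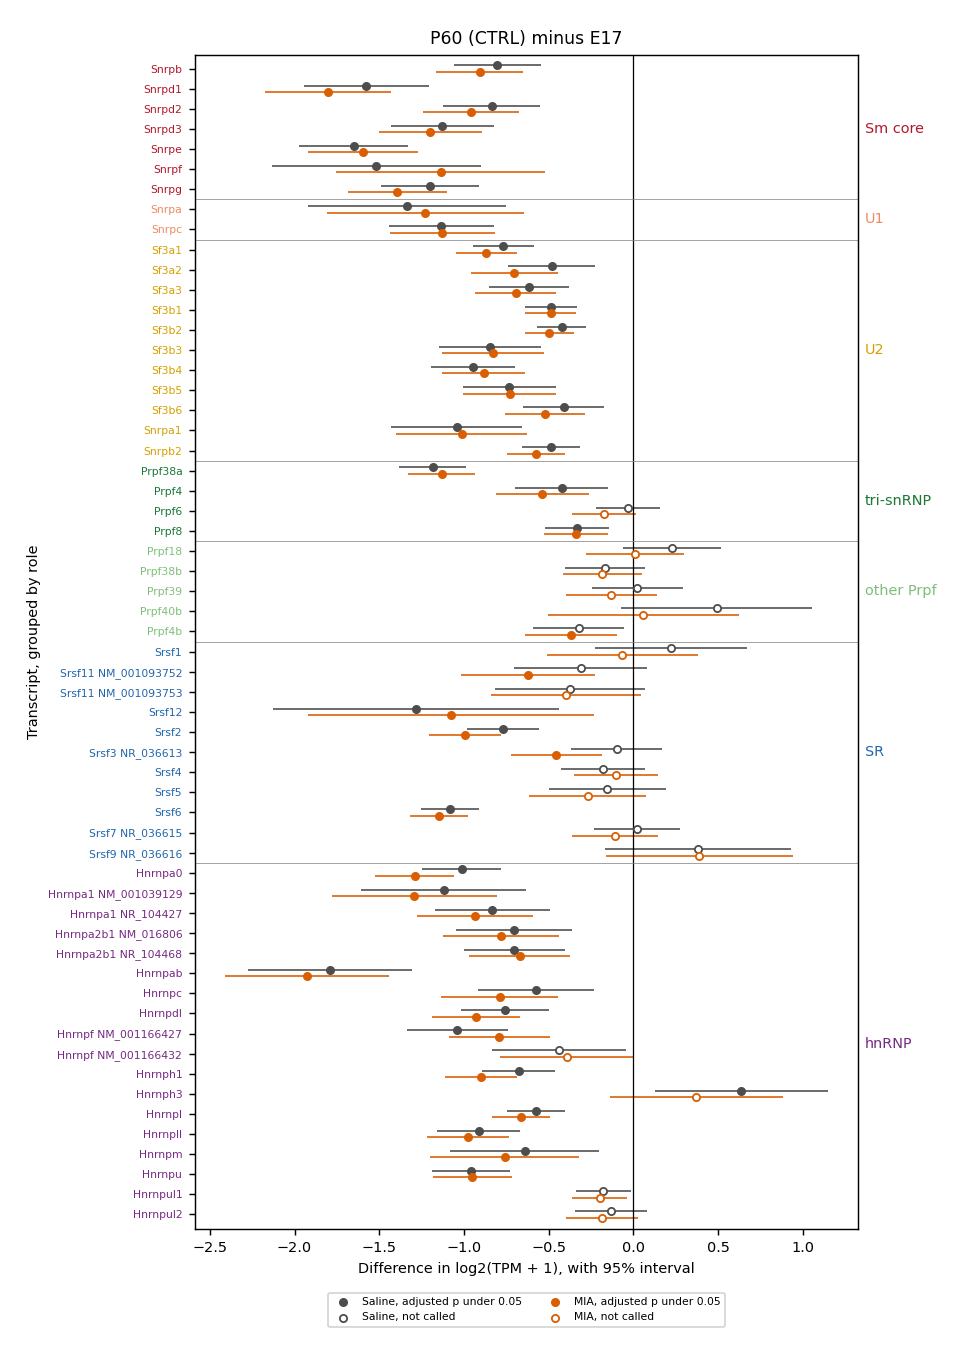
The log2 difference P60 CTRL minus E17 is plotted on the x axis for 58 of the transcripts on the y axis, grouped by role, in Saline and in MIA offspring. Bars are 95% intervals and filled points have an adjusted p under 0.05, and the filled points lie below 0 for 40 of these in Saline and 43 in MIA offspring.

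Other cell markers moved over the same span. The 13 mitotic transcripts summed to 1330 to 1498 TPM in E17 Saline and to 27.7 to 40.7 TPM in Saline + CTRL, and 13 of 13 were lower at P60. Oligodendrocyte markers rose from a mean of 101 to 1244 TPM (10 of 10 transcripts called higher) and astrocyte markers from 333 to 2252 TPM (10 of 11). Of 8 immediate early transcripts, which mark activation during tissue handling among other stimuli, 6 were called higher at P60. Of the 8 microglial transcripts 6 were called higher and 1 lower. Markers of border macrophages, which the beads also take, fell from a mean of 1087 to 483 TPM, with 4 of 6 called lower and 1 higher. The part of these markers in the fall of the members was not tested.

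Next, MIA and Saline offspring were compared at each age without depletion. No transcript of the table was called at E17, P7, P20 or P60 with control chow (0% in each direction), and so no member was. Of the members 0, 0, 2 and 2 had an unadjusted p under 0.05 at these ages, against 4.11%, 2.36%, 3.21% and 1.8% of all transcripts. The median log2 difference of the members was 0.05 at E17, −0.03 at P7, −0.06 at P20 and −0.03 at P60. At E17 the smallest p belonged to Hnrnpll (0.21), Prpf18 (0.24) and Hnrnpc (−0.28), each with an adjusted p of 0.754 in limma. At P7 they belonged to Hnrnpc (−0.30), Hnrnpul1 (−0.14) and Hnrnpul2 (0.17), and at P20 to both Hnrnpf transcripts (0.47 and 0.31) and Snrpd3 (−0.33). At P60 they belonged to Hnrnpc (−0.50), Srsf2 (−0.26) and Srsf12 (0.71), and at all 3 of these ages the adjusted p was 1 (limma). Hnrnpc (NM_016884) did not exceed 2.21 TPM in any library. Srsf2 had 599.7, 571 and 595 TPM in Saline + CTRL and 489.7, 504 and 479.8 TPM in MIA + CTRL. The MIA libraries lay below the others, and the difference did not pass the test. Lower values in MIA + CTRL without overlap were seen for 475 of all 14225 transcripts and for 3 of the 59 members.

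Repopulated microglia were then compared with those of control chow. In Saline offspring 16 of 59 members rose and 7 fell in MG-REP, where 11.9% of all transcripts rose and 14.9% fell. The median log2 difference was 0.10 over the members and −0.15 over all transcripts. The calls differed between the roles. All 7 Sm core transcripts rose, with a median of 0.99, while none of the 11 SR transcripts rose and 5 fell, with a median of −0.26. The SR calls depended on the scaling, as given below. All 7 Sm core transcripts come from genes with 1 curated transcript, and of the SR transcripts only those of Srsf2 and Srsf6 do. These roles thus differ in the kind of transcript listed as well. Of the U2 proteins 4 of 11 rose (Snrpa1, Snrpb2, Sf3b5 and Sf3b6), of U1 Snrpc, of those counted with the tri-snRNP Prpf38a, and of the hnRNPs 3 of 18 rose and 1 fell. Of the 26 members of genes with 1 curated transcript 13 rose and 2 fell, and of the 33 others 3 rose and 5 fell. In MIA offspring none of the 59 was called in MG-REP against CTRL, where 0.387% of all transcripts rose and 0.169% fell, and 2 members had an unadjusted p under 0.05, against 6.2% of all transcripts.

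In the Sm core, Snrpg had 22.7, 28 and 34.6 TPM in Saline + CTRL and 74.2, 65.1 and 55.7 TPM in Saline + MG-REP, a log2 difference of 1.17 ± 0.15 (SE, adjusted p = 1.43e-06, limma). The MIA libraries had 20.1, 29.7 and 24.4 TPM of Snrpg with control chow and 24.7, 26.2 and 29.6 TPM in MG-REP, a difference of 0.13 with a 95% interval from −0.16 to 0.42. All 3 Saline + MG-REP libraries thus lay above the 9 other libraries of P60. Snrpf had 6.59, 9.81 and 8.67 TPM in Saline + CTRL and 29.7, 19.1 and 18.5 TPM in Saline + MG-REP (1.31 ± 0.32, adjusted p = 0.00292, limma). In MIA offspring it had 10.1, 13.7 and 10.4 TPM and then 9.04, 11.1 and 8.65 TPM, a difference of −0.22 with an interval from −0.84 to 0.40. Snrpe had 55.7, 62.6 and 39.0 TPM in Saline + CTRL and 132, 89.6 and 113 TPM in Saline + MG-REP (1.08 ± 0.16, adjusted p = 1.93e-05, limma). These groups did not overlap for the 3 genes, which the rule that named them required. Of all transcripts, 14.9% had the Saline + MG-REP libraries above all those of Saline + CTRL.

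Snrpd1, Snrpd2, Snrpd3 and Snrpb rose in Saline offspring by 0.99, 0.61, 0.61 and 0.49 on the log2 scale, with adjusted p from 0.000294 to 0.00666 in limma and no overlap between the groups. For Snrpb the Saline + MG-REP libraries had 629.7, 407 and 384 TPM, and for Snrpd1 129, 64.4 and 70.0 TPM, with library 1 the highest of its group in both. Without that library 5 of the 7 Sm core transcripts were called, with a median of 0.68, and 8 members rose and 6 fell in all. With median-ratio scaling 7 of 7 rose, with quantile normalization 6, with Xist as a covariate 5, and in a fit of the 2 groups alone 3. Sex differed between the groups by Xist and 4 Y-linked genes. The 6 MG-REP libraries had 159 to 174 TPM of Xist and library 1 of each CTRL group 124 and 139.9 TPM, all with at most 0.66 TPM of the Y genes, while libraries 2 and 3 of Saline + CTRL had 268 and 318 TPM of the Y genes and those of MIA + CTRL 280.1 and 290.7 TPM. The comparison of MG-REP with CTRL is thus partly one of female with male mice in both kinds of offspring, and the Xist covariate is the measure of this made here.

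The fall of SR transcripts in Saline offspring was led by Srsf3, and the transcripts listed for Srsf3 and Srsf7 are not the protein-coding ones. Srsf3 NR_036613 and Srsf7 NR_036615 are non-coding forms in RefSeq that hold an extra exon, of 456 bases for Srsf3 (chr17:29039454-29039909, plus strand, GRCm38) and of 460 bases for Srsf7 (chr17:80204622-80205081, minus strand). Such cassettes are known as poison exons, because the stop codon they bring into frame exposes the message to nonsense-mediated decay. The sequence below runs from near the start of each cassette to that stop, which is in capitals, at chr17:29039458-29039487 on the plus strand and chr17:80205054-80205081 on the minus strand.
Srsf3: accatcatgtctcttctcaccaccctcTGA
Srsf7: gtttcttcgtttgagtcagtcgcctTGA
Reads of unspliced RNA would fall in these exons too, and which of the gene's reads the deposited values hold is not given in the sources used here, so the values are those of the listed transcript and not of the gene.

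Srsf3 NR_036613 had 47.3, 52.1 and 58.7 TPM in Saline + CTRL and 25.5, 30.6 and 28.6 TPM in Saline + MG-REP, a log2 difference of −0.88 ± 0.14 (SE, adjusted p = 3.03e-05, limma). The MIA libraries had 39.99, 44.9 and 50.6 TPM with control chow and 35.5, 39.9 and 32.6 TPM in MG-REP (−0.32, adjusted p = 0.69, limma, 95% interval from −0.59 to −0.05). The Saline + MG-REP libraries were the lowest of all 30, and at the other ages the lowest Saline library had 53.0 TPM. Srsf7 NR_036615 had 35.4, 34.3 and 48.5 TPM in Saline + CTRL and 30.8, 31.0 and 26.3 TPM in Saline + MG-REP (−0.40 ± 0.13, adjusted p = 0.024, limma), again without overlap. Lower values without overlap were seen for 3348 of all 14225 transcripts and for 6 of the 59 members. Srsf5 (−0.55, adjusted p = 0.0212, limma), Srsf2 (−0.29, adjusted p = 0.0499, limma) and Srsf6 (−0.26, adjusted p = 0.0292, limma) were also called lower, but their libraries overlapped. The SR calls depended on the scaling, since 1 of 11 was lower with median-ratio scaling (median −0.12) and 3 of 11 with quantile normalization (median −0.11), while Srsf3 was called with both (−0.74 with median-ratio scaling, adjusted p = 0.00259, limma).

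**Figure D4:**
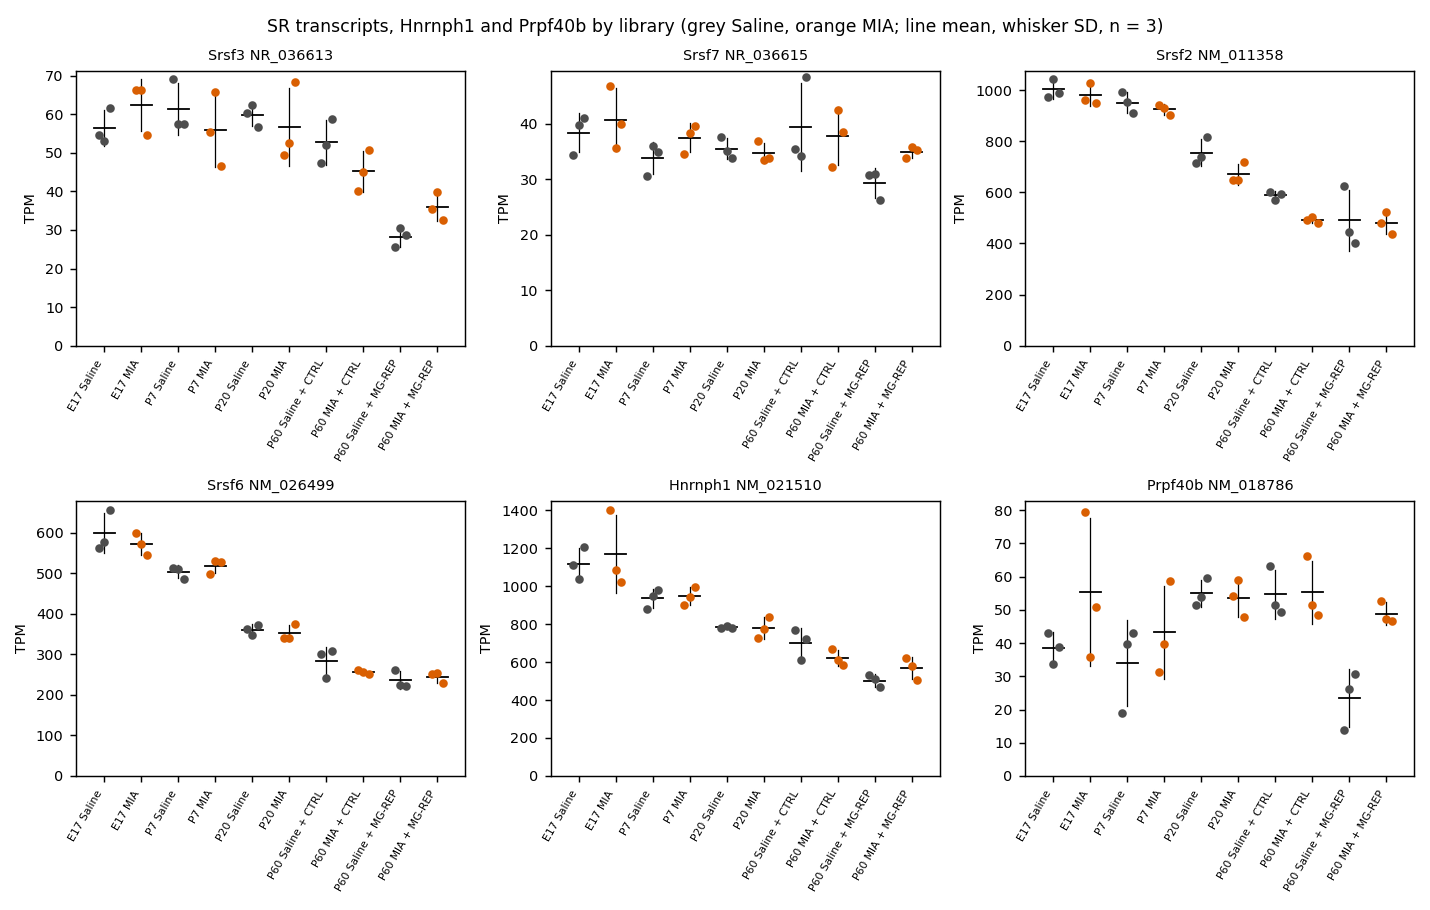
The TPM of the listed Srsf3, Srsf7, Srsf2, Srsf6, Hnrnph1 and Prpf40b transcripts is plotted on the y axis for the 10 groups on the x axis. Points are libraries (grey Saline, orange MIA), lines are means and whiskers SD of 3 libraries. Srsf3, Srsf7, Hnrnph1 and Prpf40b have their 3 Saline + MG-REP libraries below the 3 Saline + CTRL libraries, as have 3348 of all 14225 transcripts.

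Of the remaining members, Prpf40b (chromosome 15 of GRCm38.p6 from 99295076 to 99317018) fell most in Saline offspring. It had 63.2, 51.5 and 49.2 TPM in Saline + CTRL and 13.8, 26.1 and 30.7 TPM in Saline + MG-REP (−1.25 ± 0.29, adjusted p = 0.00202, limma), against 66.2, 51.4 and 48.3 TPM and then 52.7, 47.2 and 46.7 TPM in MIA offspring (−0.16, 95% interval from −0.73 to 0.40). Prpf40b has no overlap between the Saline groups, and its lowest value is that of library 1. Hnrnph1 had 767, 613 and 721 TPM in Saline + CTRL and 532, 508 and 466 TPM in Saline + MG-REP (−0.48 ± 0.11, adjusted p = 0.00193, limma). Its groups did not overlap, which the rule that named it and Prpf40b required. Of all 14225 transcripts, 3348 were lower in Saline + MG-REP without overlap. In a fit of the 2 groups alone the adjusted p of Hnrnph1 was 0.0601 (limma). The hnRNPs that rose were Hnrnpab, Hnrnpll and Hnrnpa0. Hnrnpab had 7.83, 9.30 and 9.93 TPM in Saline + CTRL and 32.9, 15.3 and 12.04 TPM in Saline + MG-REP (0.95 ± 0.25, adjusted p = 0.00524, limma). Hnrnpll (NM_144802), known for the splicing of Ptprc in lymphocytes, had 63.4, 59.1 and 56.2 TPM and then 104, 79.6 and 75.2 TPM (0.51 ± 0.12, adjusted p = 0.00303, limma). Both were higher in all 3 Saline + MG-REP libraries, with library 1 the highest.

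**Figure D5:**
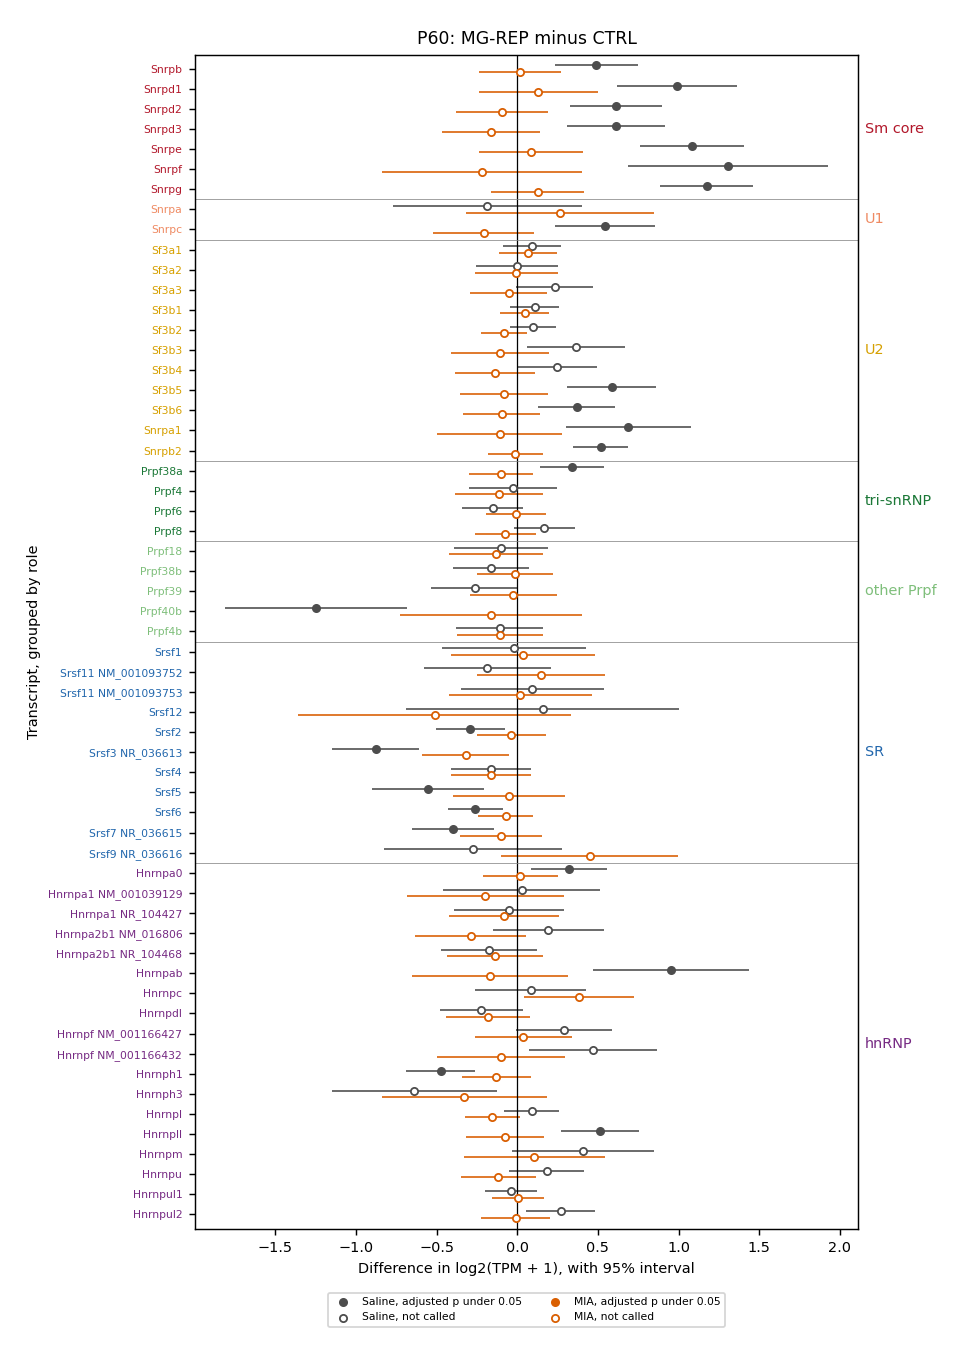
The log2 difference MG-REP minus CTRL at P60 is plotted on the x axis for 58 of the transcripts on the y axis, grouped by role, in Saline and in MIA offspring. Bars are 95% intervals and filled points have an adjusted p under 0.05, which 23 transcripts have in Saline and 0 in MIA offspring.

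Saline and MIA offspring were also compared within MG-REP, a comparison that shares the 3 Saline + MG-REP libraries with the one above. There 21 of 59 members were lower in MIA offspring and 1 higher, where 11% of all transcripts were lower and 10.9% higher, and the median log2 difference was −0.18 over the members and 0.12 over all transcripts. The 21 included 7 of 7 Sm core transcripts, 5 of 11 of U2, 6 of 18 hnRNPs and no SR transcript. Snrpg differed by −1.24 ± 0.15 (SE, adjusted p = 1.07e-06, limma), Hnrnpab by −1.20 ± 0.25 (adjusted p = 0.000938, limma) and Snrpf by −1.12 ± 0.32 (adjusted p = 0.012, limma). The 1 member that was higher was Prpf40b, by 1.09 ± 0.29 (adjusted p = 0.00741, limma). Without Saline + MG-REP library 1, 10 members were called, 6 of them Sm core transcripts, and the adjusted p was 0.0966 for Snrpf and 0.0946 for Prpf40b. Hnrnpab was then at −0.79 (adjusted p = 0.0111, limma), and with only the 2 groups in the fit its adjusted p was 0.0681. For Srsf3 the MIA libraries were higher (0.34 ± 0.14), and the adjusted p was 0.0808 in limma.

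Whether MG-REP moved the members differently in MIA and in Saline offspring was tested as a difference between both differences, which uses all 4 groups of P60. By that test 11 of 59 members were lower in MIA than in Saline offspring and none higher, where 6.09% of all transcripts were lower and 4.42% higher. They were Snrpd1, Snrpd2, Snrpd3, Snrpe, Snrpf and Snrpg of the Sm core, Snrpc of U1, Sf3b5 and Snrpb2 of U2, and Hnrnpab and Hnrnpll. Snrpf had a difference of −1.53 ± 0.45 (SE, adjusted p = 0.0285, limma), Hnrnpab of −1.12 ± 0.35 (adjusted p = 0.0405, limma) and Snrpg of −1.05 ± 0.21 (adjusted p = 0.00154, limma). Snrpb, the remaining ring subunit, had −0.47 ± 0.19 (adjusted p = 0.114, limma) and was not called. None of the SR transcripts was called, and Srsf3 had 0.56 ± 0.19 (adjusted p = 0.0703, limma). Of 20 alternatives, Snrpg kept its call in 20, Snrpf lost it in 6 and Hnrnpab in 13. The count of members called was 4 without Saline + CTRL library 3 and 4 without Saline + MG-REP library 1, and it was 5 to 7 without Saline + CTRL library 1, MIA + CTRL library 1 or any one of the MIA + MG-REP libraries. Without Saline + MG-REP library 1 the log2 differences of Snrpf (−1.31, adjusted p = 0.1, limma) and of Hnrnpab (−0.71, adjusted p = 0.146, limma) were smaller.

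The markers of other states at P60 moved with these results. The 13 mitotic transcripts summed to 1837, 742 and 644 TPM in Saline + MG-REP, to 27.7 to 40.7 TPM in Saline + CTRL and to 31.5 to 33.2 TPM in MIA + MG-REP, and 13 of 13 were called higher in Saline + MG-REP than in Saline + CTRL and none in MIA offspring. Of the 8 microglial transcripts 7 were called lower and 1 higher in Saline + MG-REP, and of the 8 immediate early transcripts 7 were called lower. The 6 border macrophage markers summed to a mean of 899 TPM in Saline + MG-REP, 483 TPM in Saline + CTRL and 331 TPM in MIA + MG-REP, with 1 of 6 called higher and 1 lower in the Saline comparison. The part of these markers in the results on the members was not tested.

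The 5′ ends of the genes were read for short promoter motifs, because all 7 Sm core transcripts fell from P7 to P20 and rose in Saline + MG-REP. RefSeq (GRCm38.p6) gave a promoter, of 250 bases before the start and 50 after it, for 47 of the 55 genes. The letters CCGGAAG, on either strand, which ETS factors are known to bind, were in 17 of the 47 (36.2%), in 16.2% of the promoters of all genes of the table and in 8.9% of all promoters. In the Sm core they were in 2 of 5. CCAAT was in 42.6% of the members' promoters and in 38% of those of the table, CACGTG in 8.5% and 9.9%, TATAAA in 12.8% and 7.2%, AAGATGGC in 6.4% and 4.3%, and the palindromic NRF1 motif in 0% and 1.8%. The 17 genes with the letters have 19 transcripts, of which 5 rose and 2 fell in Saline + MG-REP, and the 30 genes without them have 32, of which 7 rose and 5 fell. Windows of 30 bases around a motif are shown for Snrpg, Snrpb2 and Sf3b6, chosen after their values were seen since each rose in Saline + MG-REP, with the motif in capitals. Srsf5 and Srsf7, which fell there, hold the letters too. The windows of Snrpg, Snrpb2 and Sf3b6 lie at chr6:86371384-86371413, chr2:143063030-143063059 and chr12:4817527-4817556 of GRCm38.p6, on the plus strand.
Snrpg: tggcgacgcaaCCGGAAGcgtggctctggt
Snrpb2: ttggccgccctCTTCCGGcgcggggaagct
Sf3b6: cggtccgcaatCCGGAAGcgttctggagct
In Snrpb2 the motif reads on the minus strand. Snrpb2 (NM_021335), a U2 protein, had 104, 87.9 and 102 TPM in Saline + CTRL and 147, 131 and 143 TPM in Saline + MG-REP (0.52 ± 0.09, adjusted p = 6.97e-05, limma), while Sf3b6 (NM_025323), which contacts the branch point, had 73.9, 94.2 and 76.6 TPM and then 135, 90.5 and 94.4 TPM (0.37 ± 0.12, adjusted p = 0.0259, limma). The groups overlapped for Sf3b6 and not for Snrpb2. The match of letters is a description and was not tested.

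A list of 108 other genes of the splicing machinery gave 96 transcripts of 89 genes in the table. From E17 to P60 in Saline offspring 52 of the 96 fell and 3 rose, with a median log2 difference of −0.39. Over all transcripts, as above, 25.4% fell and 22.1% rose. In Saline + MG-REP against Saline + CTRL 15 of the 96 rose and 10 fell, not far from the 11.9% and 14.9% over all transcripts, with a median of 0.06, and in MIA offspring none was called. Among these, 7 of 22 snRNP and Lsm transcripts rose and 1 fell, 5 of 23 helicases and related factors rose and 1 fell, and none of 28 splicing regulators rose and 6 fell. These counts of sub-lists are descriptions with no test. The regulators on the list include factors with tissue-specific expression such as Nova1 and Qk. In the test of the difference between MIA and Saline offspring 9 of the 96 were lower and 2 higher, where 6.09% of all transcripts were lower and 4.42% higher.

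Magohb, a core subunit of the exon junction complex, had 49.5 ± 21.5 TPM in Saline + MG-REP and 15.99 ± 0.774 TPM in Saline + CTRL (SD over 3 libraries) (log2 difference 1.49 ± 0.21, SE, adjusted p = 7.32e-06, limma). Sart3, which recycles the U6 particle, rose from 62.7 ± 2.88 to 170.3 ± 69.9 TPM (1.36 ± 0.15, adjusted p = 3.2e-07, limma), and had 59.6 TPM in MIA + CTRL and 59.6 TPM in MIA + MG-REP. Ppih, a tri-snRNP cyclophilin, rose from 0.55 ± 0.49 to 2.41 ± 0.986 TPM in its NM_028677 transcript (1.15, adjusted p = 0.0136, limma), a level that rests on few reads. The largest falls were those of Nova1, a neuronal splicing regulator, from 18.8 ± 1.05 to 6.50 ± 3.05 TPM (−1.496, adjusted p = 0.000144, limma), of the Snrnp70 transcript NR_126539 (−0.91, adjusted p = 0.000304, limma) and of the Qk transcript NM_021881 (−0.86, adjusted p = 0.00139, limma). Qk, a regulator of splicing in glia, and the same Snrnp70 transcript, together with Casc3 of the exon junction complex, were the ones that rose with age in Saline offspring, by 0.91, 0.53 and 0.46 (adjusted p = 0.000393, 0.0151 and 0.00786, limma). The largest falls with age were those of Sfpq (−1.503, adjusted p = 1.86e-09, limma), Ppil1 (−1.47, adjusted p = 1.39e-06, limma) and Magoh (−1.32, adjusted p = 3.87e-09, limma), of which Sfpq is a paraspeckle protein.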

How the data were processed

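CD11B-positive cells of 30 libraries were profiled. Per the labels and methods, the authors made non-stranded poly(A) libraries, used Rsubread for alignment to mm10 and featureCounts with a UCSC annotation for counting, filtered on CPM and deposited TPM per transcript, whose formula is not given in the sources used here. A deposited column that assigns each transcript to a module was not used. The rule for members reads symbols and no measured value, but rule, lists and tests were chosen with earlier results of these data known. Log2(TPM + 1) was fitted in R 4.3.3 with limma 3.58.1, all 10 groups in 1 model, with a mean-variance trend, two-sided tests and Benjamini-Hochberg adjustment over 14225 transcripts at 0.05. Intervals are 1.96 SE on either side. The fit was tested on simulated data with 200 transcripts changed in Saline + MG-REP. There 13 of 67 changes of 0.5 on the log2 scale were called, 47 of 67 of 1 and 62 of 66 of 2. The changed transcripts were drawn from the whole table. In the measured comparison 1687 transcripts were called higher and 2118 lower, so these rates need not hold for the members. Differences of about 0.5 can still be missed, and no call does not mean no change.

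The genes named are, per comparison, the 3 largest rises and 3 largest falls of the members that were called without overlap between groups, or the 3 smallest p where none was, and in each role the member with the highest level and that with the widest range. The same rule named the other splicing genes. For genes named as the largest rises or falls between 2 groups, the lack of overlap was thus fixed by the rule. The values of 1 member are not reported here. Further members are named as examples of their role.

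The fit was repeated with 0.1 as the pseudocount, without transcripts under a mean of 1 TPM, after median-ratio scaling or quantile normalization, with log2 Xist added as covariate, with untrended moderation, with replicate number as block, with the compared groups alone, and with each library omitted. Replicate numbers were checked for pairing by the correlation of deviations from group means. In MIA against Saline at P20 all 3 pairs were over 0.1 (0.238, 0.104 and 0.132), and the comparison gave no member with or without the block. In every other comparison at least 1 of the 3 pairs was under 0.1, and the libraries were not taken as paired. Some single pairs there were higher, such as 0.404 and 0.656 in MIA against Saline at E17, so pairing is not excluded. Reads per library (7990000 to 12820000) were estimated from steps in low TPM, so that values near 1 TPM rest on few reads. Exons are those of GENCODE M21 and promoters those of RefSeq GRCm38.p6. Figures were drawn with matplotlib 3.10.9.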

Additional observations from a re-analysis of the deposited data

Results flagged for a closer look

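The difference of MG-REP from CTRL at P60 was not the same in MIA as in Saline offspring for 11 of the 59 members, by the limma test of the difference between both. The named ones were Snrpf, with −1.53 on the log2 scale, Hnrnpab with −1.12 and Snrpg with −1.05. Each was called higher in Saline + MG-REP than in Saline + CTRL and was not called in MIA offspring. For Snrpf the control groups also entered the difference, with means of 8.36 TPM in Saline + CTRL and 11.4 TPM in MIA + CTRL. Its means in MG-REP were 22.4 TPM in Saline and 9.61 TPM in MIA offspring. Saline + MG-REP library 1, which had the most mitotic TPM of its group, had the highest value of the 12 P60 libraries for each of the 3 genes, and without it the adjusted p of Snrpg (0.007, limma) was the only one of the 3 under 0.05. Over 20 alternatives Snrpg kept its call in each, Snrpf lost it in 6 and Hnrnpab in 13, and 4 members were called without Saline + CTRL library 3 as well as without Saline + MG-REP library 1.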

How the results depend on the processing

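No named log2 difference changed direction under an alternative. The members' medians in MIA against Saline, which lie near 0, changed sign at E17 with median-ratio scaling (−0.07) and without E17 MIA library 1 (−0.03), and rose above 0, to 0.025 at most, under 1 alternative each at P7, P20 and P60 with control chow; that of the difference in age effect from E17 to P60 rose to 0.01 without E17 MIA library 1. Of the counts of members called under the alternatives, 186 were within 1.5 times the reported one and 22 were not. The 186 include every count of the comparisons with no member called, which stayed at 0 under each alternative. The 22 thus all belong to the comparisons with calls. In Saline offspring from P20 to P60, 3 members were called, and 0 with median-ratio scaling, quantile normalization, Xist as a covariate or only the 2 groups in the fit, and 0 to 2 with 1 library left out. In MG-REP against CTRL in Saline offspring, 23 members were called, 15 with Xist as a covariate, 6 with only the 2 groups and 14 to 24 with 1 library left out, the lowest without Saline + MG-REP library 1. In MIA against Saline within MG-REP, 22 were called, 7 with only the 2 groups and 10 to 26 with 1 library left out. In the difference between both MG-REP differences, 11 were called, 3 with only the 4 groups and 4 to 14 with 1 library left out. A fit of only the groups compared has fewer libraries for the spread, and the cause of the other shifts was not tested. The share of higher calls over all transcripts in MG-REP against CTRL in Saline offspring was 44.3%, and 57.5% with median-ratio scaling. With the replicate number as a block, 23, 22 and 11 became 23, 21 and 9, and 3 became 2. Among single genes, 55 values lost their call under an alternative. Depth limits what can be said of the 9 members under 5 TPM.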
